A study of Mus musculus with 22 samples.

Results

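The 59 genes described here encode the contractile apparatus of the vascular smooth muscle cell (SMC) and what controls it: proteins of actin and myosin filaments, kinases and phosphatase subunits, dense body and adhesion proteins, calcium and potassium channels, receptors, and the transcription factors that switch these genes on. They are 59 of the 21938 protein-coding genes that GENCODE M21 places on mouse chromosomes, and each was matched by its symbol. A peak of Oct4 chromatin immunoprecipitation sequencing (ChIP-seq) was assigned to a gene when its summit, the base with the most fragments, lay in the gene body or within 50 kb of it. A peak could belong to more than 1 gene.

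The study compared SMC-specific knockout mice in advanced atherosclerosis, and 2 of its 22 samples are used here, 1 Oct4 ChIP-seq sample of Oct4-WT/WT mice (wild-type) and 1 of Oct4-KO/KO mice (knockout). Each came from frozen aorta of 15 C57BL/6 mice after 18 weeks on a Western diet, taken from the root and arch up to the carotid bifurcation. Both groups were apoE-/- and carried the tamoxifen-inducible Myh11-CreERT2 and an eYFP lineage tracer, and the wild-type mice were littermates. Myh11-CreERT2 acts in SMC alone and lies on the Y chromosome, so the mice were male, and the other cells of the tissue, which the labels describe as a mixture of cell types, kept Oct4 in both groups. All mice had been given tamoxifen before the diet, when they were 6 to 8 weeks old. Peak lists hold no expression by which the labelled tissue could be checked. The deposited wild-type list is identical to a second one named as called over the knockout. Which name is right, and so what shared sites mean, cannot be told from the lists. All wild-type folds fit 1 expected number for the whole genome, 0.458 fragments, so no knockout count at a site entered these folds. With 1 sample per genotype there is no replicate error, no difference between genotypes has a test, and every interval below covers counting error within these samples only.

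Contractile SMC express a common set of genes that carry CArG boxes, which bind serum response factor (Srf), and the coactivators myocardin (Myocd) and the myocardin-related transcription factors bind Srf in turn. In atherosclerotic lesions SMC lose much of this programme. Oct4, encoded by Pou5f1, is a pluripotency factor that binds an octamer, ATGCAAAT.

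There were 4977 wild-type and 7018 knockout peaks on chromosomes. Fold enrichment is the number of fragments stacked at the summit plus 1, divided by the number expected over the whole genome plus 1, where the expected numbers were 0.458 and 0.462 fragments. The smallest number of fragments that made a peak was 5 in both lists. In 35 bins of 1 Mb the peaks were dense (20 or more in either list), and these bins held 1852 wild-type and 1785 knockout peaks, none of them assigned to a contractile gene.

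Oct4 peaks were found at 15 of the 59 genes in the wild-type (25.4%) and at 26 in the knockout (44.1%). Among all protein-coding genes the shares were 18.8% and 30.5%. In both genotypes, 14 genes had a peak (23.7%, against 16.4% of all genes). Itpr2, an inositol trisphosphate receptor that releases stored calcium, was the only gene with a peak in the wild-type alone (1.69%, against 2.34% of all genes). A further 12 genes (20.3%, against 14.1%) had one in the knockout alone: Cacna1c, Cald1, Kcnj8, Kcnma1, Mef2a, Pdlim7, Ppp1r12a, Ppp1r12b, Ppp1r14a, Rock2, Tln1 and Tpm1. In either genotype together the count was 27 of 59 (45.8%, against 32.8%).

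The 32 genes with no peak in either list include the most used markers of the contractile state. The smooth muscle myosin heavy chain gene Myh11 had its nearest summit 294 kb away in the wild-type and 210 kb away in the knockout. For Acta2, smooth muscle α-actin, the distances were 1658 kb and 609 kb. The actin-binding protein genes Tagln (758 kb and 58.8 kb) and Cnn1 (674 kb and 1103 kb) also had none in range. Of the transcriptional regulators, Srf had its nearest summit 280 kb away in both lists, and Myocd had it 2222 kb and 112 kb away. These genes therefore had no listed Oct4 peak within 50 kb in either genotype.

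Long genes offer more room for a peak, and the contractile genes are long, with a median body of 92.9 kb against 17.4 kb for all protein-coding genes. The shares were therefore also set beside those of all genes within classes of body length. Of the 23 contractile genes up to 50 kb long, 3 had a wild-type peak (13.0%, against 16.2% of all genes of that length) and 8 a knockout peak (34.8%, against 27.0%). From 50 to 200 kb there were 23 genes, with 6 in the wild-type (26.1%, against 25.02%) and 10 in the knockout (43.5%, against 39.7%). Over 200 kb, 6 of 13 had a wild-type peak (46.2%, against 36.5%) and 8 of 13 a knockout peak (61.5%, against 53.0%).

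**Figure D1:**
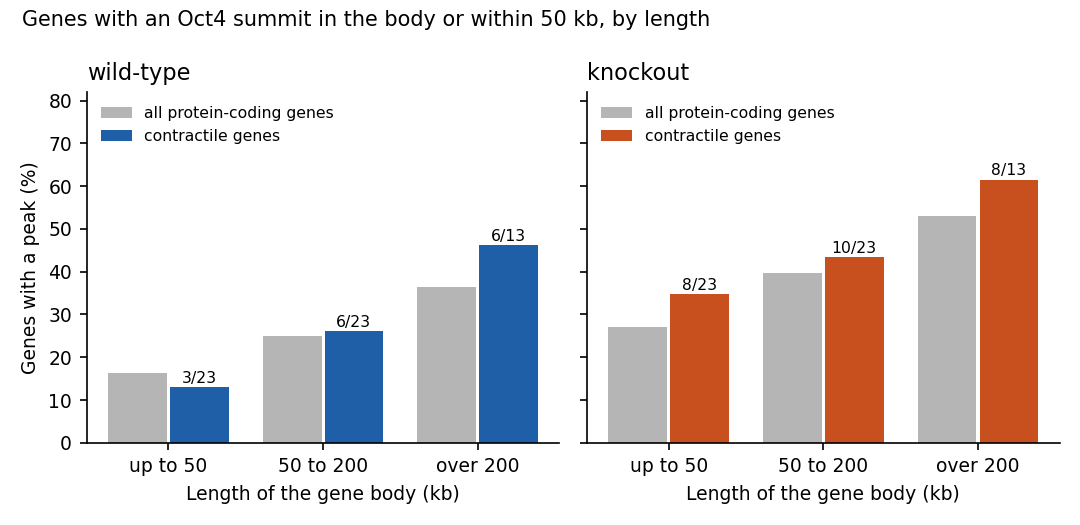
Share of genes with an Oct4 summit in the body or within 50 kb (vertical axis, percent) by length of the gene body (horizontal axis, kb), for the wild-type (left) and the knockout (right). Grey bars are all protein-coding genes, coloured bars the 59 contractile genes with counts above them; both kinds of bar are taller for longer genes, and the 2 kinds differ by no more than 10 percentage points in any class.

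If the peaks of each chromosome were spread evenly over its sequenced bases, 18.5 of the 59 genes would be expected to have a wild-type peak and 24.5 a knockout peak. The counts of 15 and 26 were 0.809 and 1.06 times these. Over all protein-coding genes the counts were 0.880 and 1.03 times the even expectation (4114 against 4675 in the wild-type, 6689 against 6468 in the knockout). Counted as peaks, the windows of the contractile genes held 15 in the wild-type (95% Poisson interval 8.40 to 24.7) and 32 in the knockout (21.9 to 45.2), where even placement gives 24.4 and 36.3. These counts were 0.614 and 0.882 times even placement, while the windows of all protein-coding genes held 1.11 and 1.14 times theirs. With the dense bins left out, the ratios were 0.839 and 1.06 for the contractile genes and 1.10 and 1.14 for all protein-coding genes. Over the 15.3 Mb of these windows this is 0.980 wild-type peaks per Mb (0.549 to 1.62) and 2.09 knockout peaks per Mb (1.43 to 2.95). The whole genome had 1.88 and 2.65 peaks per Mb and the windows of all protein-coding genes 1.93 and 2.90. Both wild-type values lie above the interval of the contractile genes, and both knockout values lie inside theirs. Outside the dense bins the genome had 1.19 and 2.0 peaks per Mb and the windows of all protein-coding genes 1.32 and 2.31, all inside these intervals. Counted as genes outside the dense bins, even placement gives 14.4 contractile genes with a wild-type peak and 21.5 with a knockout peak (ratios of 1.04 and 1.21), where all protein-coding genes had ratios of 1.15 and 1.20. The position of the wild-type count against its background thus depended on whether the dense bins were counted.

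Among the 15 contractile proteins of the actomyosin filaments, 3 had a wild-type peak and 5 a knockout peak. Even placement gives 3.46 and 4.63, or 2.24 and 3.61 with the dense bins left out. Myh10, a nonmuscle myosin heavy chain, had a peak in an intron with a fold of 9.60 (13 fragments) in wild-type tissue and 13.0 (18 fragments) in knockout tissue, with both summits on the same base. Myl6, the essential light chain of smooth muscle and nonmuscle myosin, had its peak 13.5 kb upstream, with folds of 9.60 and 11.6. The other peaks of this group were weaker and occurred in 1 list each. Lmod1, leiomodin, which nucleates actin filaments, had a peak in each list at different positions, 5.9 kb downstream inside Shisa4 in the wild-type (fold 7.54) and 28.7 kb upstream inside Timm17a in the knockout (fold 7.52). Cald1, caldesmon, which binds actin and restrains its interaction with myosin, had a knockout peak in an intron (fold 8.89). The knockout peak of Tpm1, a tropomyosin, lay 1.1 kb upstream of its start (fold 6.84), in a run of A. The 31-base words within 100 bp of its summit, a wider stretch than the called peak, had a median of 85 copies in the genome.

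Kinases, phosphatase subunits and enzymes of cyclic GMP signalling set how far the myosin light chain is phosphorylated, and thereby force. Of these 10 genes, 3 had a wild-type and 7 a knockout peak. Even placement gives 3.23 and 4.40, or 2.94 and 4.19 with the dense bins left out. The peaks with the highest fold of any contractile gene were here. Phactr1, a regulator that binds actin and protein phosphatase 1, had folds of 16.5 (23 fragments) in the wild-type and 21.9 (31 fragments) in the knockout at an intronic site. Mylk, the myosin light chain kinase, had 17.8 (25 fragments) and 19.2 (27 fragments) at a site 2.2 kb upstream of its body. The nearest start of a protein-coding Mylk transcript was 41.9 kb from that site. Prkg1, the cyclic GMP-dependent kinase that mediates relaxation, had folds of 6.86 and 10.3 in an intron. All remaining peaks of this group were in the knockout alone. A second Phactr1 peak (fold 6.84) lay 43.4 kb downstream. Ppp1r12a and Ppp1r12b are myosin phosphatase targeting subunits. The Ppp1r12a peak (8.21) lay 3.2 kb downstream, and the Ppp1r12b peak (8.89) lay 15.9 kb upstream inside Ube2t. The peak of the phosphatase inhibitor Ppp1r14a (7.52) lay 18.1 kb downstream inside Dpf1. Rock2, a kinase that inhibits myosin phosphatase, had an intronic peak (6.84). Gucy1a1, Gucy1b1 and Rock1 had none.

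Dense bodies and adhesions anchor the actin filaments of SMC. Of the 13 genes of this group, 5 had a wild-type and 7 a knockout peak (even placement, 3.28 and 4.51, or 2.61 and 4.12 outside the dense bins). All 5 of the wild-type sites were also in the knockout list. Itga8, the integrin α8 chain, had a site 47.2 kb downstream with folds of 10.3 (14 fragments) in the wild-type and 15.7 (22 fragments) in the knockout. The α-actinin genes Actn1 (9.60 and 14.4) and Actn4 (8.23 and 13.0) each had an intronic site. Sorbs2, an adaptor of adhesions and Z-discs, had folds of 11.7 and 13.0 at 1.9 kb upstream of a protein-coding transcript start. Ldb3, which binds α-actinin, had 6.86 and 8.89 at 9.0 kb downstream, inside the gene 9230112D13Rik. In the knockout alone there was a second Actn4 peak 46.5 kb downstream (6.84). A peak of Tln1, talin, lay 38.2 kb upstream inside Gm12472 (8.89), also in the knockout alone. So did a peak of Pdlim7, a PDZ and LIM domain protein of actin filaments, 763 bp downstream (6.84). Des, Pdlim3, Svil, Synpo2, Vcl and Vim had none.

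Calcium enters SMC through channels of the plasma membrane and is released from stores. Of these 9 genes, 3 had a wild-type and 3 a knockout peak, where even placement gives 4.80 and 6.03, or 3.90 and 5.44 with the dense bins left out. Trpv4, a calcium-permeable cation channel, had folds of 7.54 (10 fragments) in the wild-type and 16.4 (23 fragments) in the knockout, with summits 1 bp apart in an intron. This site lay 513 bp from the start of an annotated transcript that retains an intron, and 8.1 kb from the nearest start of a protein-coding transcript. Cacnb2, a β subunit of voltage-gated calcium channels, had 7.54 and 10.3 in an intron. Cacna1c, the pore of the L-type calcium channel, had an intronic peak in the knockout alone (8.21), and Itpr2 had one in the wild-type alone (7.54, 29.1 kb upstream). Cacna2d1, Itpr1, Ryr2, Ryr3 and Trpc6 had none.

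Potassium channels hyperpolarize and so relax SMC. No wild-type peak was assigned to the 4 genes of this group and a knockout peak to 2 (even placement, 1.41 and 1.81, or 1.04 and 1.55 outside the dense bins). Kcnma1, the pore of the large-conductance calcium-activated channel, had 2 intronic knockout peaks of the same fold (8.21, 11 fragments), and Kcnj8, the pore of the vascular ATP-sensitive channel, had 1 (6.16, 8 fragments) 39.99 kb downstream. Neither Abcc9 nor Kcnmb1 had a peak, and neither did the receptor genes Agtr1a and Ednra (even placement, 0.557 and 0.683, or 0.329 and 0.533 outside the dense bins). Of the 6 transcriptional regulators, 1 had a wild-type and 2 a knockout peak (even placement, 1.80 and 2.43, or 1.39 and 2.09 outside the dense bins). Mrtfa, which carries changes of actin to Srf, had 1 wild-type peak (5.49, 7 fragments) and 3 knockout peaks (6.84, 7.52 and 6.84, or 9, 10 and 9 fragments), the most of any contractile gene, and none of these sites was in both lists. The last Mrtfa knockout peak lay 7.7 kb upstream, and the other Mrtfa peaks lay in introns. Mef2a, a factor of muscle differentiation, had 2 knockout peaks, 1 at 34.6 kb downstream (6.84) and 1 in an intron (5.47). Mef2c, Mrtfb, Myocd and Srf had none.

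**Figure D2:**
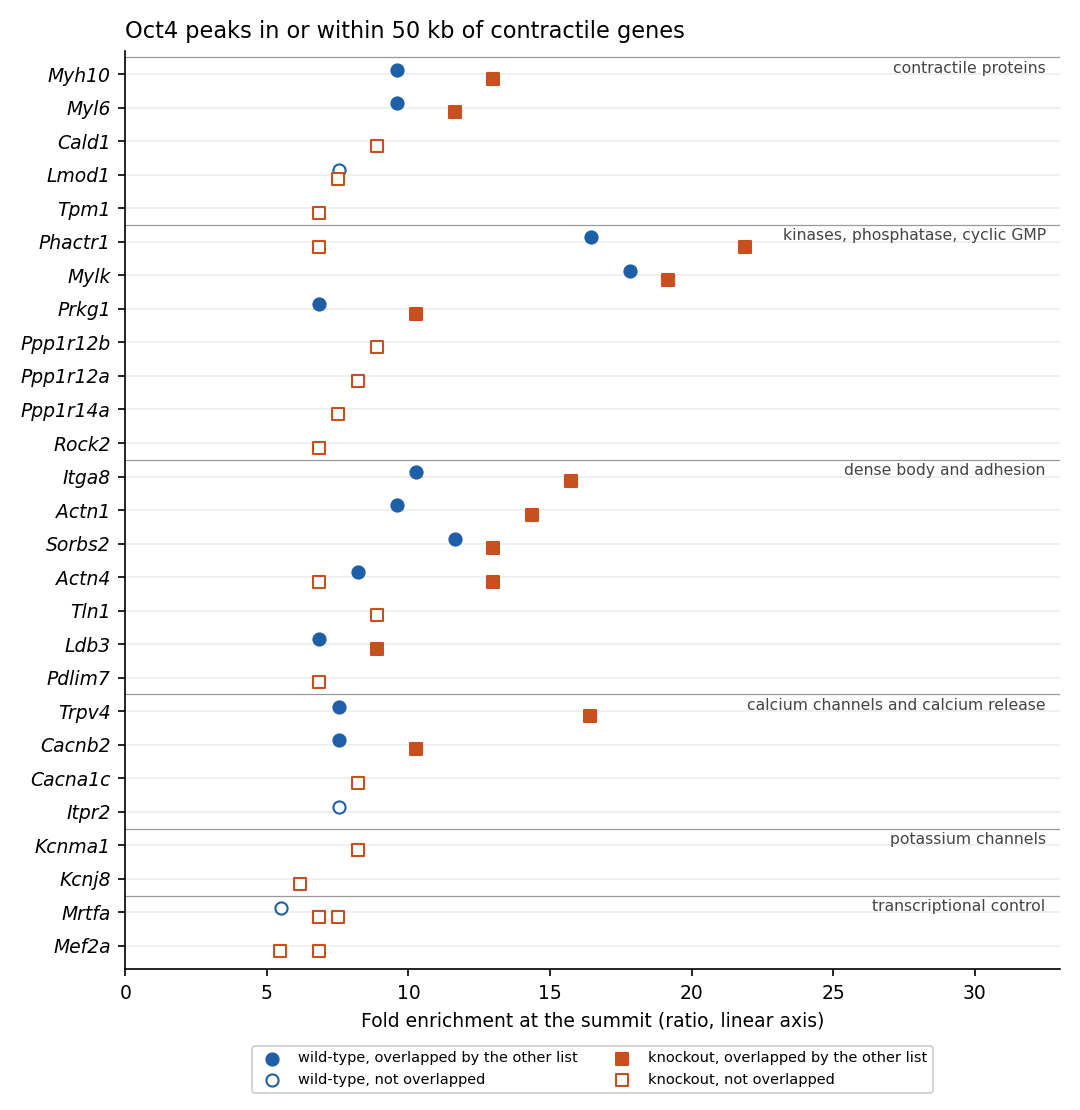
Fold enrichment at the summit (horizontal axis, a ratio without unit) of each Oct4 peak assigned to a contractile gene (rows, grouped by role), with circles for the 15 wild-type and squares for the 32 knockout peaks. Filled symbols overlap a peak of the other list and reach 17.8 and 21.9, open symbols do not and none exceeds 8.89; equal peaks of Kcnma1 and of Mrtfa lie on top of each other.

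Of the 15 wild-type peaks of contractile genes, 12 were overlapped by a knockout peak (80.0%, exact 95% binomial interval 51.9 to 95.7), against 66.7% of all wild-type peaks on chromosomes and 78.2% of those outside the dense bins. The wild-type peaks of Itpr2, Lmod1 and Mrtfa were not. Of the 32 knockout peaks, 12 were overlapped (37.5%, 21.1 to 56.3), against 47.6% of all. Both of these intervals contain the share of all peaks. The 20 peaks in the knockout alone had a median fold of 7.18 (5.47 to 8.89, or 7 to 12 fragments), and none exceeded the 8.89 of the weakest shared peak.

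At all 12 shared sites the fold was higher in the knockout, against 60.9% of the 3321 shared sites on chromosomes and 68.3% of those outside the dense bins. The ratio of knockout to wild-type fold ran from 1.07 at Mylk to 2.18 at Trpv4, with a median of 1.36, and the median of all shared sites was 1.11 (1.17 outside the dense bins). Added over the 12 sites, there were 166 wild-type and 233 knockout fragments, a ratio of 1.40 (1.15 to 1.72), where all shared sites gave 1.13, those outside the dense bins 1.17 and those of all protein-coding genes 1.16. The first of these lies below the interval and the other two inside it. None of these counts were adjusted for depth, put at 1.06 for knockout over wild-type, and the ratios of all shared sites include it too. For single sites the counts are small, and the interval of 11 of the 12 ratios includes equality. Trpv4 was the exception, with 10 and 23 fragments (ratio 2.30, 1.05 to 5.41, not adjusted for looking at 12 sites). These sites are by construction those where the knockout also had a peak, so the wild-type peaks of Itpr2, Lmod1 and Mrtfa are not among them.

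**Figure D3:**
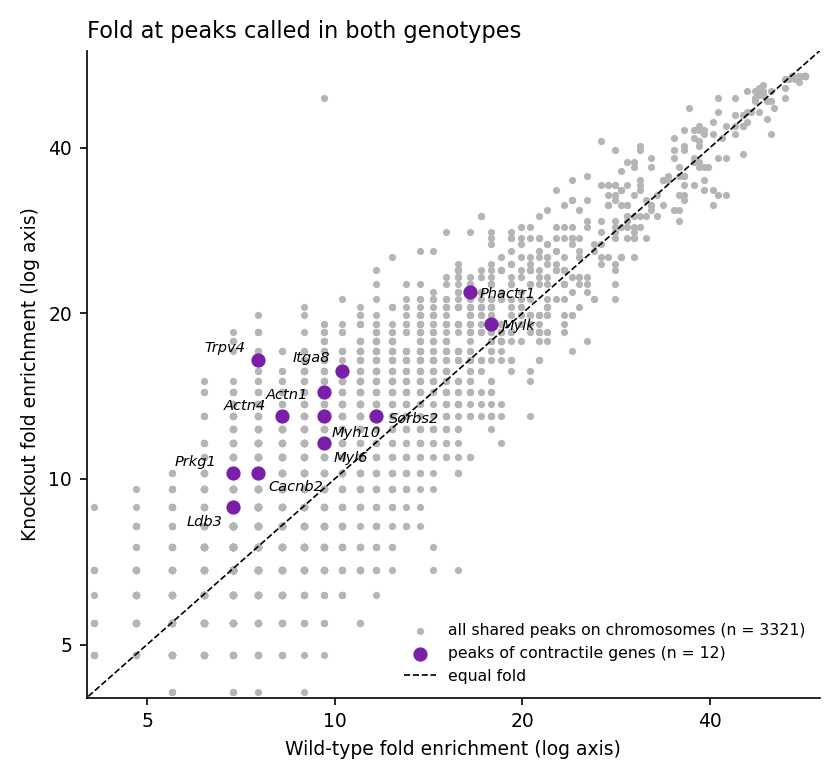
Fold enrichment in the wild-type (horizontal, log axis) against the knockout (vertical, log axis) at peaks that overlap between the lists, with all 3321 such peaks on chromosomes in grey and the 12 of contractile genes in purple. All 12 lie above the dashed line of equal fold, Trpv4 farthest from it (7.54 and 16.4) and Mylk nearest to it (17.8 and 19.2).

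No summit lay in an exon. In the wild-type, 8 of the 15 summits were in introns, 4 upstream and 3 downstream. In the knockout, 15 of the 32 were in introns, 8 upstream and 9 downstream. The share inside the body was 53.3% and 46.9%, against 24.8% and 25.61% of all pairs of a protein-coding gene and a peak, in a set of genes that is longer than most. No contractile gene had a summit within 1 kb of the start of a protein-coding transcript. The nearest were those of Tpm1 (1.1 kb, knockout) and Sorbs2 (1.9 kb, both lists). A share of all genes for protein-coding starts alone was not computed. For starts of any annotated transcript, 1 wild-type and 1 knockout summit, both of Trpv4, lay within 1 kb (6.67% and 3.13%). Among all pairs these shares were 3.85% and 3.14%. The median distance to the nearest start of any annotated transcript was 14.9 kb in the wild-type and 17.6 kb in the knockout, and it was 25.8 kb for all pairs in both lists.

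**Figure D4:**
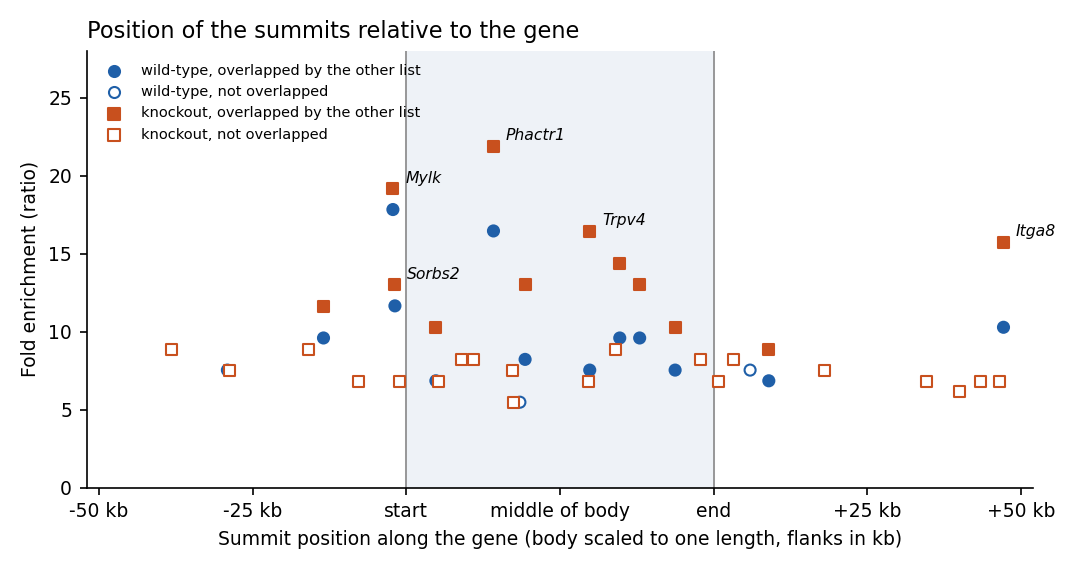
Position of each summit along its gene (horizontal axis; the body, shaded, is scaled to one length and the 50 kb to each side are to scale) against fold enrichment (vertical axis, a ratio), with wild-type circles and knockout squares, filled where the peak overlaps the other list. The sites of highest fold, at Phactr1, Mylk, Trpv4 and Itga8, lie at different places, in the body, just upstream of it and 47.2 kb downstream.

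Stretches of letters that recurred at Oct4 summits were sought on either strand of GRCm38.p6, and 10 of the 15 wild-type sites held 1 or more of them. These are TAATCCCAG with G before it (form 1) or T before it (form 2), a second stretch GAGGCTGAG (form 1) or GAGGCAGAG (form 2), and 2 or more copies of CCCTAA in a row, the unit of telomere repeats. They were chosen after the data were seen. The sites were those of Sorbs2, Trpv4, Lmod1, Itga8, Myl6 and Ldb3 (form 1 of either stretch), Phactr1 and Actn4 (form 2), and Mylk and Itpr2 (telomere repeat).

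Both stretches belong to B1 elements, short interspersed repeats of rodents, and to Alu elements, their relatives in primates; form 2 is the usual one of B1 and form 1 that of many Alu elements. Within 100 bp of the summit, form 1 of either stretch was found at 6 of the 15 wild-type sites (40.0%) and 11 of the 32 knockout sites (34.4%), of which 5 sites are the same in both lists. At all summits on chromosomes the share was 9.08% and 12.2%, and at those outside the dense bins, where all contractile sites lie, 14.1% and 16.1%. In windows of the same 201 bp placed 1000 bp to each side of all summits the share of form 1 was 0.814% and 0.841%. The form 2 stretches were at 2 wild-type (13.3%) and 4 knockout sites (12.5%). They were at 8.56% and 11.1% of all summits, 10.8% and 13.2% of those outside the dense bins, and 3.85% and 3.89% of the windows to the side. In the windows to the side of the contractile summits themselves, form 1 was at 1 of 30 (3.33%) and 3 of 64 (4.69%), and form 2 at 0 of 30 and 2 of 64 (3.13%). The stretches were chosen because they recurred at summits, so a higher share there than to the side is a description only. Whether reads from another source lie at these sites was not tested.

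**Figure D5:**
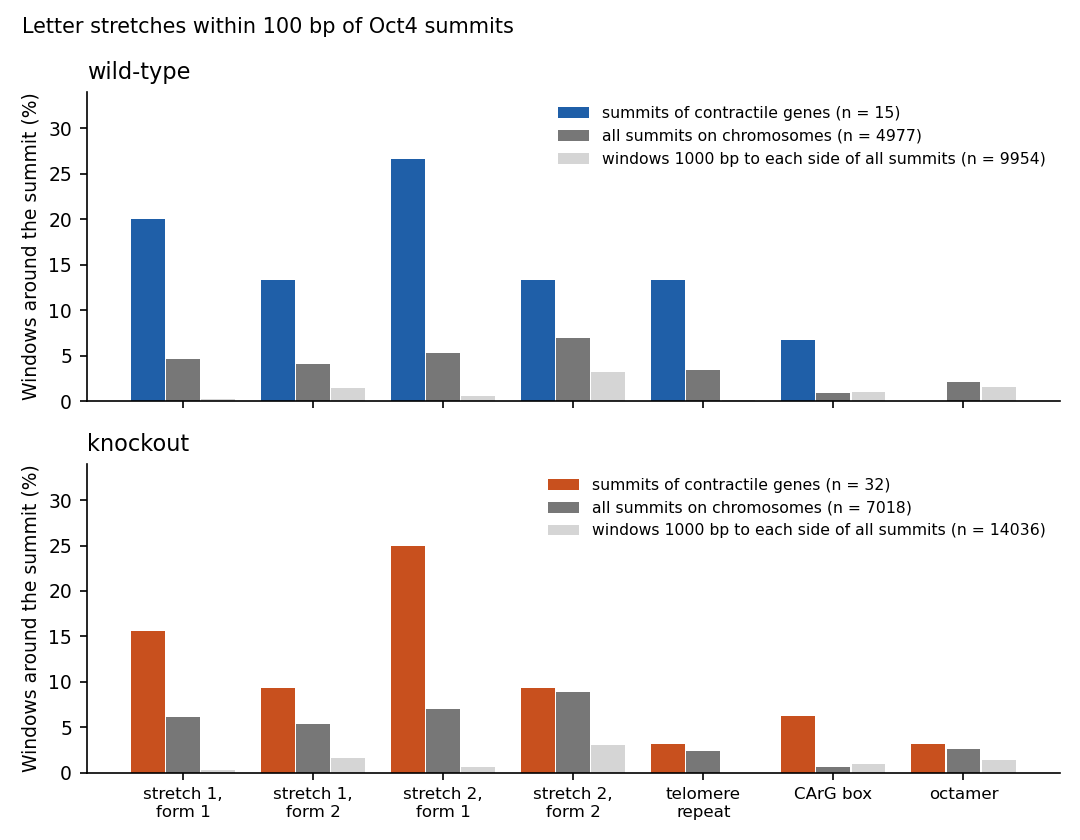
Share of windows of 201 bp (vertical axis, percent) that hold each stretch of letters on either strand, for the wild-type (top) and the knockout (bottom); stretch 1 is TAATCCCAG with G (form 1) or T (form 2) before it, and stretch 2 is GAGGCTGAG (form 1) or GAGGCAGAG (form 2). Coloured bars are the summits of contractile genes, dark grey bars all summits on chromosomes and light grey bars windows 1000 bp to each side of these; form 1 of stretch 1 is at 3 of the 15 and 5 of the 32 contractile summits and stays under 0.3% in the light grey bars.

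The telomere repeat was found at 2 wild-type sites (Mylk and Itpr2) and 1 knockout site (Mylk). It was at 3.396% and 2.35% of all summits, 5.28% and 3.10% of those outside the dense bins, and 0.0603% and 0.00712% of the windows to the side. The summit lay in repeat-masked sequence at 14 of the 15 wild-type and 25 of the 32 knockout sites (93.3% and 78.1%). The shares were 75.3% and 77.9% of all summits, and 82.1% in both lists outside the dense bins. The 31-base words within 100 bp of the summit had a median of 1 copy in the genome at 14 of the 15 and 31 of the 32 sites. That held for 49.2% and 61.4% of all summits, and for 68.8% and 76.4% of those outside the dense bins. The windows of 100 bp to each side are wider than the called peaks (41 to 60 bp wild-type, 39 to 71 bp knockout), so the median can come from sequence beside the repeat. It was 1 also at Mylk, whose called peak is telomere repeat throughout. The sites of contractile genes were thus mostly in repeats, and copies of the words under the called peaks alone were not counted.

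Motifs of the factors at issue were few. The octamer, ATGCAAAT on either strand, was within 100 bp of no wild-type summit and of 1 knockout summit (3.13%, against 2.05% and 2.59% of all summits), that of the weaker Mef2a peak, where it began 27 bp after the summit. The CArG box, the Srf motif, was within 100 bp of the shared Actn4 site in both lists and of the Cald1 summit in the knockout (6.67% and 6.25%, against 0.924% and 0.684% of all summits and 1.00% and 0.933% of the windows to the side). These shares rest on 1 and 2 sites. The region from the start of the Mef2a peak to the end of the octamer is given to show where the octamer lay, with the octamer in capitals, on the plus strand of GRCm38.p6.
Mef2a knockout, chr7:67323299-67323352: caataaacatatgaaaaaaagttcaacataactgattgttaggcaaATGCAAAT

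The shared sites of Cacnb2, Actn1, Myh10 and Prkg1 held none of these stretches or motifs.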

How the data were processed

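Oct4 ChIP-seq peak lists of 1 wild-type and 1 knockout sample were used, and the other 20 samples were not analysed here. Per the study's methods, the authors used Bowtie to align the reads (GRCm38.p6), SAMtools to take out duplicate reads and MACS2 to find peaks (q value under 0.05). Versions and the control of each call were not given in the sources used here. The deposited lists hold the MACS2 score, the fold enrichment (a ratio), the -log10 p and the -log10 q of each peak, and the summit offset. A second deposited wild-type list, named as called over the knockout, was identical in all entries and was not used further. Which name is right cannot be told from the lists. The wild-type folds fit 1 expected number for the whole genome, so no local knockout count entered them. Fragments at the summit were recovered from the fold values (largest distance from a whole number 2.4e-05). Peaks were used as deposited and assigned to GENCODE M21 genes, shared meant an overlap of 1 bp, and even placement was computed from the peaks and sequenced bases of each chromosome. Intervals of 95% are exact Poisson or binomial. Sequences were read from GRCm38.p6, and some are not reported here. The 59 genes, the 94 related genes and the tests were chosen with earlier results of these data known; the letter stretches were chosen after seeing the data. Genes named were those with a summit within 1 kb of a transcript start, the highest fold per role and list, the 10 highest folds, peaks in 1 list alone, the 3 genes with the most summits, and 7 regulators and markers in any case. Python 3.11.15, pandas 2.3.3, scipy 1.17.1, pysam 0.24.0 and numba 0.67.0 were used, and the scripts were tested on simulated data.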

Additional observations from a re-analysis of the deposited data

How the results depend on the processing

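No paired analysis was possible because each genotype has 1 sample. With the gene body alone, 8 contractile genes had a wild-type and 13 a knockout peak (13.6% and 22.0%, against 5.43% and 9.21% of all genes). These were 8 and 15 peaks, and of the related genes 9 and 17 had a peak. The contractile bodies are longer (median 92.9 kb against 17.4 kb), and neither length classes nor even placement were computed for this setting. With 100 kb there were 24 and 51 peaks. Without summits in repeat-masked sequence, 1 wild-type gene (1 peak; 1.69%, which is now below the 3.47% of all genes) and 7 knockout genes (7 peaks; 11.9%, against 5.59%) were left. In the called peak alone the octamer was at 0 knockout sites and the CArG box at 0 wild-type sites and 1 knockout site; with 1 mismatch the octamer was at 1 wild-type and 4 knockout sites. Other settings were 10 kb, a q value under 0.01, any base of the peak, the nearest gene alone, other overlaps and no dense bins. Their counts stayed within 1.5 times those given or within the intervals, but the background did not always stay. At 10 kb, 20.3% of contractile genes had a wild-type and 32.2% a knockout peak, against 8.52% and 14.2% of all genes. With the nearest gene alone these were 18.6% and 32.2%, against 8.95% and 14.7%. Gene length was not taken into account in these shares. Medians and counts rest on 7 to 31 fragments per summit, a depth at which single sites rarely separate the genotypes.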

Other observations

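A list of 94 related genes outside the contractile set (actin and other cytoskeletal proteins, receptors and signalling, ion handling, adhesion and the dystrophin complex, and transcription) was assigned in the same way. A wild-type peak was found at 22 (23.4%) and a knockout peak at 38 (40.4%), and 20 had both. The shares of all protein-coding genes were 18.8% and 30.5%, and gene length was not taken into account here. The highest folds were at Stim1, the calcium sensor of the endoplasmic reticulum (wild-type 13.7, knockout 25.99), and Ryr1, a ryanodine receptor (15.8 and 23.9). Gata6, a transcription factor of SMC, had 8.23 and 15.0, Cfl2, a cofilin that severs actin, 8.23 and 14.4, and Sgcd, a sarcoglycan of the dystrophin complex, 9.60 and 13.0. Transcriptional regulators had a knockout peak at 8 of 14 genes (57.1%), cytoskeletal proteins at 11 of 21 (52.4%), receptors and signalling at 8 of 23 (34.8%), adhesion and the dystrophin complex at 6 of 18 (33.3%) and ion handling at 5 of 18 (27.8%). In the same order, a wild-type peak was at 3, 7, 5, 5 and 2 genes. These values compare 1 library with 1 library.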
